A study of Mus musculus with 17 samples.

Results

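The levels of 9 transcripts that switch muscle from glucose to fatty acid use were examined in the diaphragm of mice with and without tumors: Pdk4, Pdk2, Ucp2, Ucp3, Angptl4, Acot1, Acot2, Cpt1a and Cpt1b. They were taken by symbol from a table of 47643 genes, and all 9 were among the 13305 genes that reached 1 TPM (transcripts per 1000000, a level corrected for transcript length) in at least 3 of the 17 samples. RNA-seq was done on the muscular portion of the diaphragm, free of tendon, of male C57BL/6J mice aged 4 months that had free access to food. The Control group (n = 5) was tumor-free and mock-injected, whereas the Control + rFibcd1 group (n = 5) was tumor-free and received rFibcd1, a recombinant fragment of the secreted protein Fibcd1. The LLC group (n = 3) carried Lewis lung carcinoma cells, which had been injected under the skin of both flanks, and was mock-injected, and the LLC + rFibcd1 group (n = 4) carried the same tumors and received rFibcd1. Both rFibcd1 and the mock solution, which contained albumin, were injected into the peritoneal cavity. The hour of dissection and the last meal of each mouse were not given in the sources used here.

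In fasting, fatty acids released from adipose tissue activate PPAR receptors, which bind DNA together with RXR partners and raise the transcription of genes for lipid use. In muscle, pyruvate dehydrogenase kinases (Pdk2, Pdk4) phosphorylate pyruvate dehydrogenase and hold back glucose oxidation, while carnitine palmitoyltransferase 1 (Cpt1b in muscle, Cpt1a in liver and many other cells) commits fatty acids to entry into mitochondria. Ucp3 and Ucp2 are carriers of the inner mitochondrial membrane, of which Ucp3 is typical of muscle and Ucp2 is abundant in immune cells. Acot1 and Acot2 are thioesterases that cleave long-chain acyl-CoA in the cytosol and in mitochondria, and Angptl4 is a secreted inhibitor of lipoprotein lipase that is made by adipose tissue and by many other tissues upon fasting.

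The library depth, estimated from the steps of the low values, was 50.7 to 54.6 times 1000000 fragments per mouse. Markers of myofibers (8 genes) summed to 49422 to 63673 TPM, with 0 of the 8 absent from a group, and were lower in the LLC group (49422 to 52699 TPM) than in the Control group (57806 to 62628 TPM). Transcripts encoded by mitochondrial DNA took 41.3% to 50.4% of all TPM and averaged 42.9% in the LLC group against 47.1% in Control, so that the other genes shared a larger part of the sum in tumor-bearing mice. The median gene was 0.16 higher on the log2 scale in the LLC group than in Control, 0.11 higher in LLC + rFibcd1 than in Control + rFibcd1, and 0.13 higher in tumor-bearing than in tumor-free mice. After rescaling without mitochondrially encoded genes these shifts were 0.075, 0.062 and 0.066. The table holds bulk tissue, in which fewer cells of a type and less RNA per cell cannot be told apart.

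The genes lie on 7 chromosomes, and both Ucp genes and both Acot genes are neighbors (mouse build GRCm38, GENCODE vM21). Ucp3 (chr7:100472990-100486432) ends 6904 bp before Ucp2 (chr7:100493337-100502020), on the same strand, and Acot2 (chr12:83987861-83993873) ends 15616 bp before Acot1 (chr12:84009490-84018371), also on the same strand. Pdk4 (chr6:5483351-5496309), Pdk2 (chr11:95026258-95041354), Angptl4 (chr17:33773750-33781830) and Cpt1b (chr15:89416405-89425863) are on the minus strand, and Cpt1a (chr19:3322334-3385733) is on the plus strand. The promoter table used here (RefSeq, GRCm38.p6) matched 7 of the 9 genes, with 8 start sites. The sequence AGGTCA, the core to which PPAR, RXR and other nuclear receptors bind, was searched on both strands in the 250 bases before each start site. It was present in 2 of these 8 windows, those of Ucp3 and Cpt1a, and in 14.0% of all 32851 promoters, and a pair of such cores separated by 1 base occurred in 0.0335% of all promoters and in none of the 8. The 3 windows below belong to the genes of the Ucp pair and to Cpt1a, which were called in tumor-bearing against tumor-free mice, pooled over rFibcd1 and mock, and the capitals mark the core on either strand, which begins 149 and 44 bases before the start of Ucp3 and 94 bases before the start of Cpt1a. They span chr7:100472741-100472990 (Ucp3), chr19:3323051-3323300 (Cpt1a, inside the span of the annotated gene, which has an earlier start) and chr7:100493108-100493357 (Ucp2), all on the plus strand, and a match of letters is not evidence of binding.
Ucp3: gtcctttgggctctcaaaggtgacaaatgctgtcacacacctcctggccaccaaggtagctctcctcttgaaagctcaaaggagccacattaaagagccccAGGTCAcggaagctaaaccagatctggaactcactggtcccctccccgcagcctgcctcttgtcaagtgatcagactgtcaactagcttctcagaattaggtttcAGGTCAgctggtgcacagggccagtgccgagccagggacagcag
Cpt1a: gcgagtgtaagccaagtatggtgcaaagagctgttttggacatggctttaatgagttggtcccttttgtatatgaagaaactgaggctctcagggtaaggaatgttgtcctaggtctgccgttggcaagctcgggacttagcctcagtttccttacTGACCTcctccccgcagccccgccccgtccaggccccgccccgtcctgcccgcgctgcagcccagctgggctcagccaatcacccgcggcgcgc
Ucp2: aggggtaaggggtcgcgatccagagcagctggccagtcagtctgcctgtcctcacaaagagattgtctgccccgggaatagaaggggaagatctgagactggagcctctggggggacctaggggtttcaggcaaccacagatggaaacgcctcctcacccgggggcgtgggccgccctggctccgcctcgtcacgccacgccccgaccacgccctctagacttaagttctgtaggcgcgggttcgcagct

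The 9 transcripts covered a wide range of levels. Averaged over all mice, Pdk4 (381 TPM), Cpt1b (306 TPM) and Pdk2 (267 TPM) were among the most abundant genes of the diaphragm, above 97.6% of the genes tested. Ucp3 (46.6 TPM), Ucp2 (26.0 TPM), Acot2 (19.9 TPM), Cpt1a (13.7 TPM) and Acot1 (10.4 TPM) followed, and Angptl4 (5.97 TPM) was the lowest. Neighbors in this order overlapped between mice except for Pdk2 and Ucp3, whose ranges (239 to 325 TPM and 25.8 to 93.4 TPM) were apart. The spread between mice also differed among the genes. The highest mouse had 1.36 times the level of the lowest for Pdk2 and 1.44 times for Cpt1b, but 3.05 times for Pdk4, 3.63 times for Ucp3, 4.20 times for Ucp2 and 16.7 times for Angptl4, which rested on an estimated 67 fragments in its lowest mouse and 1156 in its highest.

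**Figure D1:**
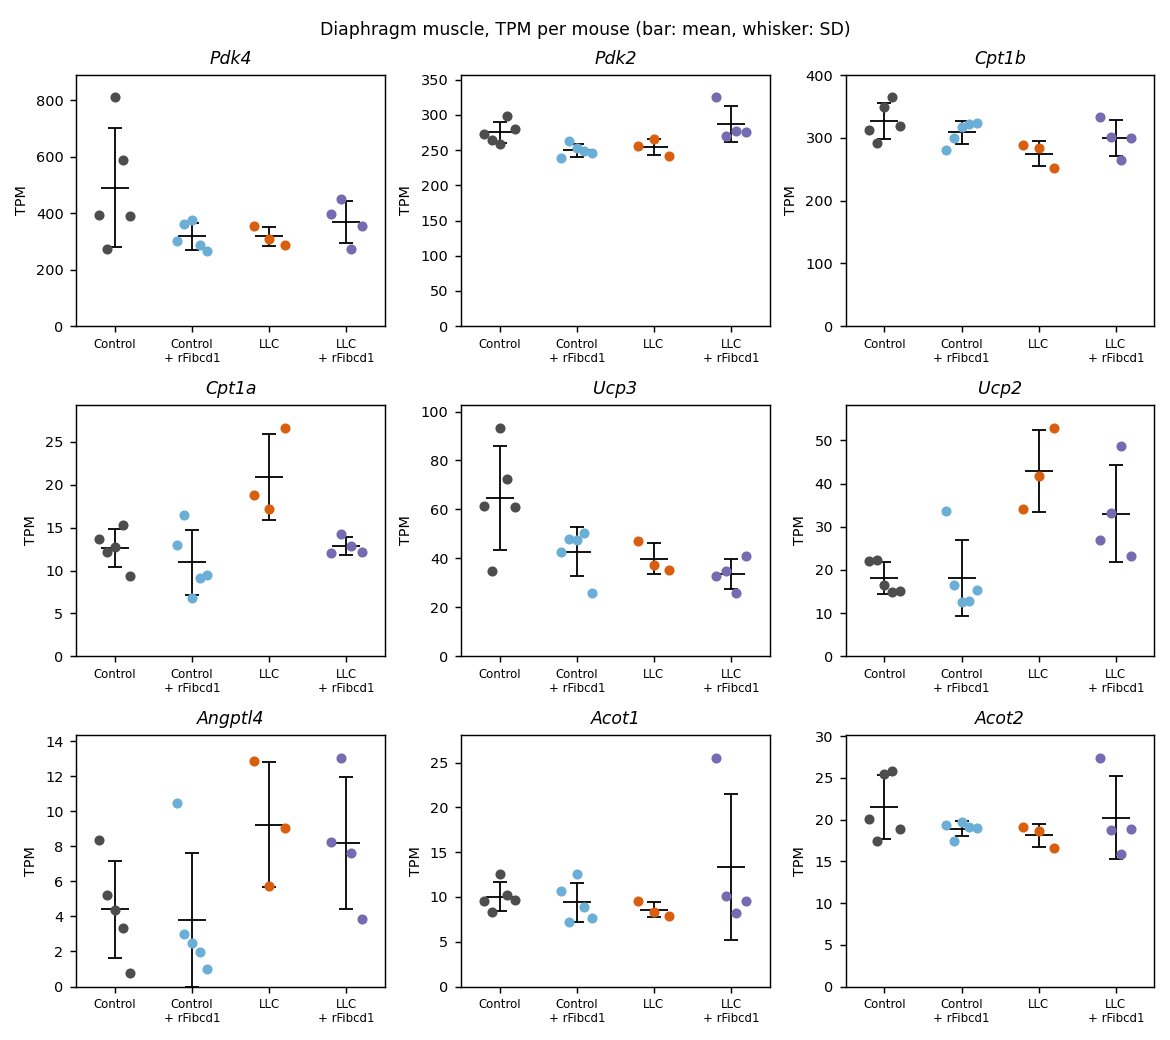
Level of each transcript in TPM (vertical axes, from 0) in every mouse of the 4 groups (horizontal axes), with bars for group means and whiskers for SD. Ucp2 was at 34.2 to 53.0 TPM in the 3 LLC mice, above all 5 Control mice, and the Pdk4 values of the Control group spread from 272 to 810.1 TPM.

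The question addressed first was whether a tumor changed these transcripts in mock-injected mice. Ucp2 and Cpt1a were higher and Cpt1b was lower in the LLC group than in Control, whereas the other 6 transcripts did not pass the test (limma on log2(TPM + 1), adjusted p under 0.05 over all genes tested). These 3 of 9 calls compare with 35.8% of all genes called in this comparison, with 29.7% called higher and 6.02% called lower. The groups did not overlap for the same 3 transcripts, against 40.2% of all genes. The median log2 difference of the 9 was -0.20, against 0.16 over all genes.

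Ucp2 was at 34.2, 41.7 and 53.0 TPM in the LLC mice and at 22.1, 22.4, 16.6, 14.8 and 15.1 TPM in the Control mice. Every LLC mouse was above every Control mouse, by a ratio of means of 2.36 and a log2 difference of 1.19 (SE 0.29, adjusted p = 0.0122). With LLC replicate 3 left out, the adjusted p was 0.0734, the highest over the fits that left out 1 mouse. With the replicate number as a block in limma, the Ucp2 call was lost too (1.02, adjusted p = 0.0632). The same block ended the calls of Cpt1a (adjusted p = 0.0998) and Cpt1b (adjusted p = 0.111). Cpt1a was at 18.8, 17.2 and 26.6 TPM in LLC and at 13.6, 12.1, 12.7, 15.3 and 9.37 TPM in Control. All LLC mice again exceeded all Control mice, with a log2 difference of 0.68 (SE 0.21, adjusted p = 0.0264). This call was lost without Control replicate 5, LLC replicate 1 or LLC replicate 3 (highest adjusted p 0.153), and also under median-ratio scaling (0.48, adjusted p = 0.0609) and quantile normalization (0.47, adjusted p = 0.0523), which set the libraries to a common median ratio or a common distribution.

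Cpt1b, the muscle form of the same enzyme, went the opposite way. It was at 289, 283 and 252 TPM in the LLC mice and at 312, 292, 348, 364 and 318 TPM in the Control mice, again without overlap but with a narrow gap between 289 and 292 TPM. The log2 difference was -0.25 (SE 0.081, adjusted p = 0.0295), or -0.41 relative to the median gene, and the call was lost without Control replicate 3 or 4 or LLC replicate 1 or 3. As a share of Cpt1b, Cpt1a amounted to 6.52%, 6.08% and 10.6% in the LLC mice and to 2.94% to 4.37% in the Control mice, so that even in the tumor-bearing diaphragm the muscle form made up most of the transcript.

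Ucp3 and Pdk4 had lower means in LLC than in Control but did not pass the test. Ucp3 was at 47.0, 37.5 and 35.2 TPM in LLC and at 61.4, 34.9, 93.4, 72.3 and 61.1 TPM in Control, where replicate 2 lay below all LLC mice (log2 difference -0.63, SE 0.26, adjusted p = 0.0741). Pdk4 was at 356, 309 and 289 TPM in LLC and at 394, 272, 810.1, 589.8 and 388 TPM in Control, and the same Control mouse was below all LLC mice (log2 difference -0.53, SE 0.27, adjusted p = 0.127). When this mouse was left out, both passed, with an adjusted p of 0.0136 for Ucp3 and 0.0282 for Pdk4. Ucp3 also passed under quantile normalization and median-ratio scaling. Pdk2 differed by -0.11 (SE 0.060, adjusted p = 0.153), but passed after rescaling without mitochondrially encoded genes (-0.22, adjusted p = 0.0438) and under median-ratio scaling (-0.32, adjusted p = 0.0402). Acot2 differed by -0.22 (SE 0.15, adjusted p = 0.235) and Acot1 by -0.20 (SE 0.27, adjusted p = 0.582).

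Angptl4 was at 12.9, 5.74 and 9.05 TPM in LLC and at 8.35, 5.20, 4.36, 3.32 and 0.781 TPM in Control. The highest Control mouse lay between the LLC mice, and the log2 difference of 1.05 (SE 0.55) did not pass the test (adjusted p = 0.141).

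**Figure D2:**
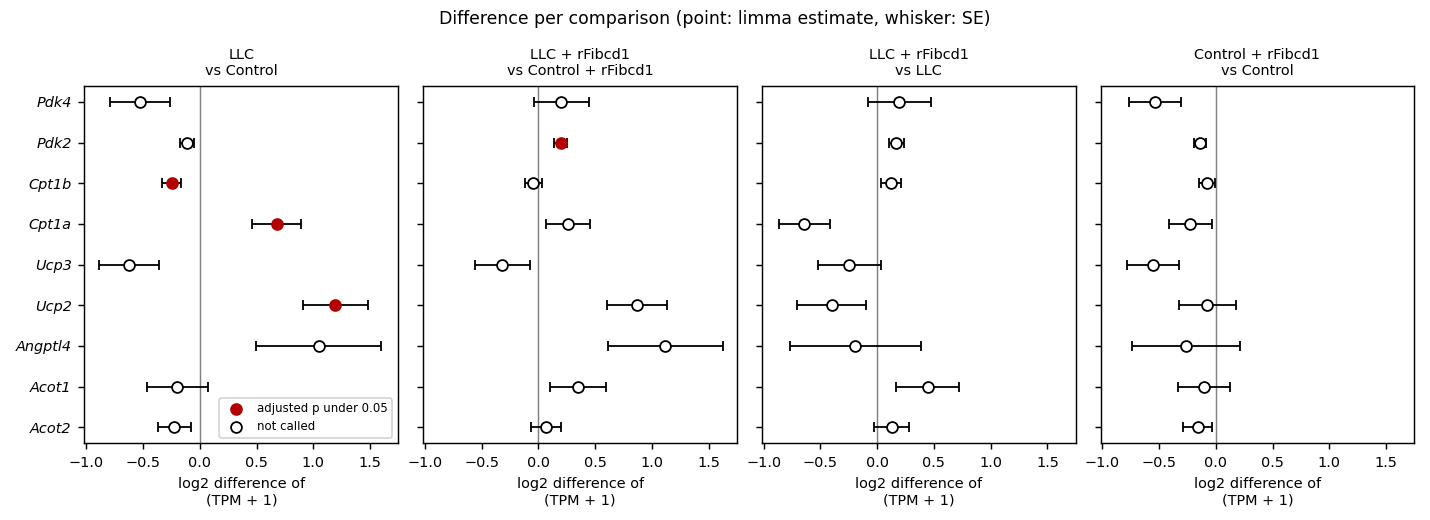
Log2 difference of TPM + 1 (horizontal axes) for the 9 transcripts (vertical axis) in 4 comparisons, with limma estimates as points and SE as whiskers. Filled points have an adjusted p under 0.05: Ucp2, Cpt1a and Cpt1b in LLC vs Control, and Pdk2 in LLC + rFibcd1 vs Control + rFibcd1.

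The tumor was next compared among mice that received rFibcd1. Here, Pdk2 was the only transcript of the 9 that passed the test, in a comparison in which 8.06% of all genes were called (1072 genes, but 477 without LLC + rFibcd1 replicate 3 and 2893 without Control + rFibcd1 replicate 1). It was at 325, 269.5, 278 and 276 TPM in LLC + rFibcd1 and at 239, 264, 254, 248 and 245 TPM in Control + rFibcd1. The groups did not overlap, as was the case for 8.91% of all genes, and the log2 difference was 0.19 (SE 0.055, adjusted p = 0.0437). Relative to the median gene the difference was 0.080, and the call was lost under 3 rescalings (0.051 under median-ratio scaling) and in 11 of the 17 fits that left out 1 mouse, among them the fit without LLC + rFibcd1 replicate 1, the highest mouse. Endothelial markers were higher in the same comparison, with 4 of 5 called (Emcn, Tek, Cdh5 and Pecam1) and a sum of 179 to 204.8 TPM in LLC + rFibcd1 against 136 to 164 TPM in Control + rFibcd1, and their part in the Pdk2 result was not tested.

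Ucp2 was at 27.0, 33.2, 48.8 and 23.2 TPM in LLC + rFibcd1 and at 33.6, 16.5, 12.6, 12.8 and 15.3 TPM in Control + rFibcd1. One Control + rFibcd1 mouse, replicate 1, overlapped the tumor-bearing mice, while the other 4 were below all of them (log2 difference 0.87, SE 0.27, adjusted p = 0.0560). Without that mouse, Ucp2 passed at an adjusted p of 0.0051. Angptl4 was at 8.26, 13.04, 7.62 and 3.83 TPM and at 10.5, 3.00, 2.51, 1.98 and 0.996 TPM in the same groups, where the same Control + rFibcd1 mouse stood apart (log2 difference 1.12, SE 0.50, adjusted p = 0.162, and 0.0299 without it). Cpt1a, which was higher in LLC than in Control, was at 12.0, 14.3, 12.8 and 12.2 TPM in LLC + rFibcd1, inside the range of Control + rFibcd1 (6.83 to 16.5 TPM), with a log2 difference of 0.26 (SE 0.20, adjusted p = 0.383). The log2 difference was -0.046 (SE 0.075) for Cpt1b, -0.32 (SE 0.24) for Ucp3, 0.20 (SE 0.24) for Pdk4, 0.35 (SE 0.25) for Acot1 and 0.066 (SE 0.13) for Acot2, none of which passed.

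With all 7 tumor-bearing and 10 tumor-free mice pooled in one contrast, 4 of the 9 transcripts passed, against 44.8% of all genes. Ucp2 (log2 difference 1.00, SE 0.19, adjusted p = 0.00245), Angptl4 (1.07, SE 0.37, adjusted p = 0.0297) and Cpt1a (0.42, SE 0.14, adjusted p = 0.0285) were higher in tumor-bearing mice. Of all genes, 38.8% were called higher and 5.98% lower. Ucp3 was lower (-0.49, SE 0.18, adjusted p = 0.0364), and Cpt1b fell just short of the threshold (-0.14, SE 0.055, adjusted p = 0.0516). Ucp2 passed in all 17 fits that left out 1 mouse and in all 7 other settings of this contrast. The calls of Angptl4 and Cpt1a were lost without LLC replicate 1 or 3, among others, and that of Ucp3 without any of 9 mice, without the filter on low values (adjusted p = 0.0568) and in the exact rank-sum test (adjusted p = 0.0770). Under 3 rescalings, the Cpt1a call of this contrast was lost too (adjusted p of 0.0602 to 0.108), as it was with the replicate block (0.35, adjusted p = 0.117) and in the exact rank-sum test (adjusted p = 0.157), while Cpt1b was called lower under all 3 rescalings (-0.22, -0.30 and -0.22, adjusted p of 0.0166 to 0.0244). The Angptl4 call was lost under quantile normalization (0.85, adjusted p = 0.0538) and in the exact rank-sum test (adjusted p = 0.0530). This contrast holds the same mice as the comparisons above and is not independent of them.

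Whether rFibcd1 itself changed the transcripts was examined separately in tumor-bearing and tumor-free mice. In tumor-bearing mice, 0 of the 9 transcripts passed at an adjusted p under 0.05 in limma, as did 0.113% of all genes (15 genes, and 0 to 88 when 1 mouse was left out). At an unadjusted p under 0.05 there were 2, against 22.7% of all genes. Without LLC replicate 3 there were 0, and the count over all genes fell from 3025 to 1107. The exact rank-sum test cannot go below 0.0571 with 3 against 4 mice and no ties. The 2 transcripts were Cpt1a and Pdk2. Cpt1a was at 12.0 to 14.3 TPM in LLC + rFibcd1 and at 17.2 to 26.6 TPM in LLC (log2 difference -0.64, SE 0.22, adjusted p = 0.190). Pdk2 was at 269.5 to 325 TPM in LLC + rFibcd1 and at 255, 266 and 242 TPM in LLC (log2 difference 0.17, SE 0.063, adjusted p = 0.196). Neither overlapped between these groups, but the share of all genes without overlap was not counted in this comparison. Ucp2 did not separate the groups (log2 difference -0.40, SE 0.30, adjusted p = 0.383).

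In tumor-free mice, 0 of the 9 passed, as did 0.00% of all genes. At an unadjusted p under 0.05 there were 3, against 4.39% of all genes, and 1 in the exact rank-sum test. Pdk4 was at 301, 361, 375, 289 and 266 TPM with rFibcd1, where 4 of the 5 mice lay within the range of the Control group (272 to 810.1 TPM) and replicate 5 was below it (log2 difference -0.53, SE 0.23, adjusted p = 0.927). Ucp3 was at 42.7, 47.9, 47.5, 50.2 and 25.8 TPM with rFibcd1 (log2 difference -0.55, SE 0.23) and Pdk2 differed by -0.14 (SE 0.052), both at the same adjusted p of 0.927. Under median-ratio scaling, none of the 3 had an unadjusted p under 0.05. The interaction of tumor and rFibcd1 was called for 0 of the 9 transcripts and 0.00% of all genes. At an unadjusted p under 0.05 there was 1, against 8.58% of all genes. This was Pdk2, whose tumor effect with rFibcd1 was 0.31 higher on the log2 scale (SE 0.082, adjusted p = 0.182) than that without. The Cpt1a interaction was -0.42 (SE 0.29, adjusted p = 0.676), so a difference in its tumor effect between the treatments was not shown.

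The pairs of related enzymes and carriers were then set side by side in each mouse, as a description without a test. The Ucp2 level amounted to 72.9%, 111% and 151% of Ucp3 in the LLC mice and to 56.8% to 188% in LLC + rFibcd1. In Control it amounted to 17.7% to 64.1%, below all LLC mice, and in Control + rFibcd1 to 25.5% to 78.6%. Cpt1a was 3.60% to 4.87% of Cpt1b in LLC + rFibcd1 and 2.15% to 5.50% in Control + rFibcd1, and these ranges overlapped. The Pdk4 level was 103% to 312% of Pdk2 in Control and 116% to 139% in LLC, and it exceeded Pdk2 in all mice except LLC + rFibcd1 replicate 3 (99.0%). Acot1 was 39.6% to 51.1% of Acot2 in Control and 44.6% to 49.9% in LLC, and 40.2% to 63.8% in Control + rFibcd1. In LLC + rFibcd1 it was 50.2% to 54.2% in 3 mice and 93.2% in replicate 1.

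**Figure D3:**
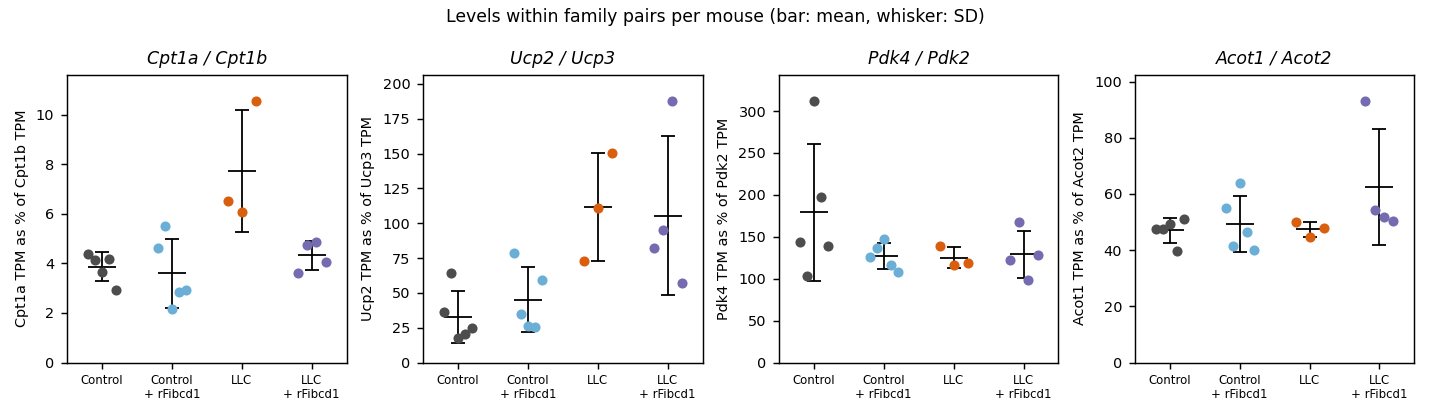
Level of one transcript as a percentage of its relative (vertical axes, from 0) in each mouse of the 4 groups, with bars for means and whiskers for SD. The Cpt1a share of the 3 LLC mice (6.08% to 10.6%) lay above that of every Control mouse (2.94% to 4.37%), and the Ucp2 share of LLC (72.9% to 151%) lay above that of Control (17.7% to 64.1%).

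The Acot values carry a limit of counting. The coding sequences of Acot1 (1257 bp) and Acot2 (1359 bp) were 95.3% identical over 1236 aligned bases, and 16.5% of the 100-base windows of the Acot1 transcript occurred unchanged in that of Acot2, so reads from these stretches could be given to either gene. The longest run shared by both lies in exon 3 of each gene. It spans chr12:84017006-84017278 for Acot1 (bases 887 to 1159 of its coding sequence) and chr12:83992728-83993000 for Acot2 (bases 1010 to 1282). The run is shown because within its 273 bases no single read can tell the genes apart. The paired read of such a read might lie outside the run, and whole fragments were not examined.
Acot1 and Acot2: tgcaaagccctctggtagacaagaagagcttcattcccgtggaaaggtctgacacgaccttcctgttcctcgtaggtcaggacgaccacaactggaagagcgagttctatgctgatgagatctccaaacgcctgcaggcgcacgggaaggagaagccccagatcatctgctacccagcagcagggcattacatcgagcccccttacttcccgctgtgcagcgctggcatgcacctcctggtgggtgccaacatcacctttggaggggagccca
The other pairs shared no 100-base window, with coding identities of 75.2% for Ucp2 and Ucp3, 67.6% for Pdk4 and Pdk2 and 66.2% for Cpt1a and Cpt1b. Acot1 was at 7.20 to 12.6 TPM in 16 of the 17 mice. LLC + rFibcd1 replicate 1 stood apart with 25.5 TPM, and the same mouse had the highest Acot2 (27.4 TPM, against 15.9 to 25.8 TPM in the other 16) and the highest Pdk2 (325 TPM). None of the comparisons called either Acot gene.

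Other genes of fuel use were examined as 7 lists with 90 genes, of which 83 were tested. In LLC against Control, 6 of these were higher and 25 were lower, with a median log2 difference of -0.13 (0.16 over all genes). Of all genes, 35.8% were called, 29.7% higher and 6.02% lower, so the share of the lists called (31 of 83) was near that of all genes. In this comparison, 0 of the 83 were called when LLC replicate 3 was left out, a mouse without which the count over all genes fell from 4759 to 24. Under median-ratio scaling 2 were higher and 46 lower, and under quantile normalization 0 were higher and 47 lower, so the higher calls named below depended on the scaling. In LLC + rFibcd1 against Control + rFibcd1, 2 were higher and 3 lower, and in both comparisons of rFibcd1 with mock, and in the interaction, 0 were called in limma. With all tumor-bearing mice pooled, 7 were higher and 15 lower. These counts were 3 and 32 after rescaling without mitochondrially encoded genes, 3 and 38 under median-ratio scaling and 1 and 38 under quantile normalization.

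Of 15 genes of mitochondrial beta-oxidation, downstream of Cpt1b, 11 were called lower and 0 higher in LLC against Control. Of all genes, 6.02% were called lower and 29.7% higher. The median log2 difference of the 15 was -0.23, against 0.16 over all genes, and the list was not tested as a set. Acaa2, the thiolase of the last step, differed by -0.32 (SE 0.071, adjusted p = 0.0111), Hadha and Hadhb, the subunits of the trifunctional protein, by -0.29 (SE 0.067, adjusted p = 0.0112) and -0.27 (SE 0.064, adjusted p = 0.0114), and Acadm, a medium-chain acyl-CoA dehydrogenase, by -0.27 (SE 0.079, adjusted p = 0.0210). Among rFibcd1-injected mice, 0 of the 15 were called by limma, with 1 at an unadjusted p under 0.05, against 28.5% of all genes, and a median of -0.0035, against 0.11 over all genes. In the interaction, 9 of the 15 had an unadjusted p under 0.05, against 8.58% of all genes, with a median of 0.23, but 0 passed at an adjusted p under 0.05. In the pooled comparison, 6 of the 15 were called lower, against 5.98% of all genes. The myofiber markers moved the same way, with 4 of 8 called lower in LLC against Control, among them Myh1, a fast myosin heavy chain (-0.64), and Mb, myoglobin (-0.30), and their part in the result was not tested.

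The list of the pyruvate dehydrogenase complex, which Pdk4 and Pdk2 inhibit, also held its other regulators and the pyruvate carriers Mpc1 and Mpc2. In LLC against Control, 7 of 12 genes of this list were called lower and 1 higher, against 6.02% and 29.7% of all genes. Mpc1 and Mpc2 were among the 7. Dld, Dlat and Pdhx, components of the complex, differed by -0.28 (SE 0.055, adjusted p = 0.00926), -0.27 (SE 0.057, adjusted p = 0.0103) and -0.25 (SE 0.052, adjusted p = 0.00973). Pdk3, another of the kinases, was higher by 0.59 (SE 0.17, adjusted p = 0.0198), at 1.56 TPM on average in Control and 2.86 TPM in LLC. Dld, Dlat and Pdhx were also lower in LLC + rFibcd1 than in Control + rFibcd1, as 3 of 12 genes, against 1.04% of all genes. The latter share depended on the scaling. Of all genes called there, 87.1% were higher, but 42.7% under median-ratio scaling and 39.2% under quantile normalization. Of the myofiber markers, 2 of 8 (Ckm and Tnnt3) were also lower there, and their part in the result was not tested. In that comparison, 0 genes of the 7 lists were called lower without LLC + rFibcd1 replicate 2 or with the replicate block, and 1 without LLC + rFibcd1 replicate 1 or 3 or Control + rFibcd1 replicate 2 or 5.

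Of the PPAR receptors and their partners, 1 of 12 was called in LLC against Control, where 35.8% of all genes were called. This was Ppargc1a (PGC-1alpha, a coactivator that promotes mitochondrial gene expression), which was at 10.4, 11.9 and 10.1 TPM in LLC and at 14.8, 39.2, 33.6, 16.1 and 62.1 TPM in Control, without overlap (log2 difference -1.34, SE 0.40, adjusted p = 0.0205). Ppara itself was at 17.5 to 20.03 TPM in LLC and at 20.6 to 41.4 TPM in Control, without overlap but short of the threshold (log2 difference -0.47, SE 0.20, adjusted p = 0.0757), and Ppard had similar means (17.2 and 17.3 TPM, log2 difference 0.0046, SE 0.099). In the pooled comparison, Rxra (0.15, adjusted p = 0.00955) and Rxrb (0.13, adjusted p = 0.0414), partners of PPAR, were higher and Nrip1, a corepressor, was lower (-0.35, adjusted p = 0.0104). Relative to the median gene, the differences of Rxra and Rxrb were 0.022 and -0.0046.

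Of all genes in LLC against Control, 29.7% were called higher and 6.02% lower. Fatty acid uptake genes were mostly not called. Fabp3, the fatty acid binding protein of muscle and heart, was the only one of 11 tested genes of this list that passed in LLC against Control (-0.30, SE 0.10, adjusted p = 0.0331). Lpl, the lipase that Angptl4 inhibits, was at 757 to 870.2 TPM in LLC and 814 to 965 TPM in Control (log2 difference -0.15, SE 0.083, adjusted p = 0.167). In the carnitine shuttle list, 2 of 8 were called in LLC against Control, with Crat, carnitine acetyltransferase, lower (-0.15, SE 0.050, adjusted p = 0.0277) and Cpt1c, a relative of Cpt1a that is typical of brain, higher (0.43, SE 0.13, adjusted p = 0.0243) at a mean of 3.35 TPM against 2.24 TPM. Among other thioesterases, Acot8 (0.38, adjusted p = 0.0155) and Acot9 (0.27, adjusted p = 0.0464) were higher, as 2 of 7 tested. Among other genes known to respond to fasting or PPAR, 2 of 18 tested were higher and 4 lower in LLC against Control. Aldh3a2, a fatty aldehyde dehydrogenase (0.34, adjusted p = 0.0297), and Mgll, monoglyceride lipase (0.38, adjusted p = 0.0431), were higher, while Plin5, a lipid droplet protein (-0.36, adjusted p = 0.0438), and Oxct1, which activates ketone bodies (-0.30, adjusted p = 0.0112), were lower. Mgll was also higher in LLC + rFibcd1 than in Control + rFibcd1 (0.50, SE 0.13, adjusted p = 0.0268), but this call was lost under the 3 rescalings and without LLC + rFibcd1 replicate 2 or 3 or Control + rFibcd1 replicate 2, where 0 genes of the 7 lists were called higher.

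**Figure D4:**
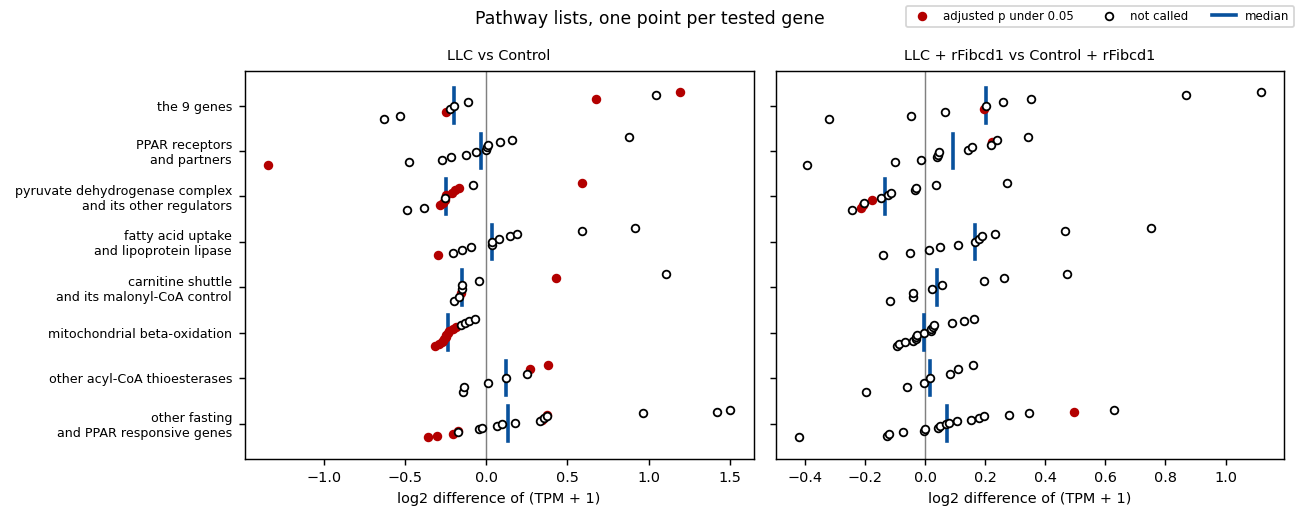
Log2 difference of TPM + 1 (horizontal axes) for each tested gene of the 9 transcripts and the 7 lists (rows) in LLC vs Control and in LLC + rFibcd1 vs Control + rFibcd1, with filled points for an adjusted p under 0.05 and vertical bars for medians. In LLC vs Control, 11 of 15 beta-oxidation genes were called lower, against 6.02% of all genes. In the other comparison 0 were, against 1.04% of all genes.

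Markers of other cell types were higher in the comparison in which Ucp2 and Cpt1a were called. In LLC against Control, 5 of 5 B cell markers, 5 of 5 T cell markers, 4 of 4 tested neutrophil markers and 3 of 5 macrophage markers were called higher by limma, against 29.7% of all genes. Summed B cell markers were at 208 to 261 TPM in LLC and 2.39 to 91.2 TPM in Control, summed T cell markers at 16.4 to 28.3 TPM and 0.851 to 9.98 TPM, summed neutrophil markers at 43.8 to 104 TPM and 1.68 to 14.0 TPM, and summed macrophage markers at 749 to 822 TPM and 205 to 460 TPM. All 4 sums thus separated these groups, as Ucp2, Cpt1a and 40.2% of all genes did. Among rFibcd1-injected mice, where neither Ucp2 (0.87, adjusted p = 0.0560) nor Cpt1a (0.26, adjusted p = 0.383) passed, 4 of 4 neutrophil markers were called higher, against 7.02% of all genes. For B cells, T cells and macrophages 0 of 5 each were called in limma, also at an unadjusted p under 0.05, against 28.5% of all genes. The sums in LLC + rFibcd1 and Control + rFibcd1 were 54.1 to 203 TPM and 2.85 to 77.3 TPM for neutrophils, 17.4 to 258 TPM and 3.32 to 131 TPM for B cells, 1.48 to 26.2 TPM and 0.596 to 6.37 TPM for T cells, and 302 to 807 TPM and 171 to 1537 TPM for macrophages.

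Control + rFibcd1 replicate 1, the tumor-free mouse with the highest Ucp2 (33.6 TPM) and Angptl4 (10.5 TPM) of its group, also had the highest macrophage sum of all mice (1537 TPM, against 171 to 390 TPM in the rest of its group) and, within its group, the highest B cell sum (131 TPM) and white adipocyte sum (2523 TPM, against 384 to 529.6 TPM). White adipocyte markers summed to 1095 to 5252 TPM in LLC, 506 to 2802 TPM in LLC + rFibcd1, 317 to 1777 TPM in Control and 384 to 2523 TPM in Control + rFibcd1. Of these 6 markers 0 passed the test in LLC against Control, where 3 had an unadjusted p under 0.05, against 48.3% of all genes, and 1 (Cfd, adipsin) was higher in the pooled comparison. Hepatocyte markers (3 genes) were at 0.469 to 279 TPM in 16 mice and at 2734 TPM in Control + rFibcd1 replicate 2, the mouse with the highest Cpt1a (16.5 TPM) of its group. Brown adipocyte, mesothelial and hepatocyte markers gave 0 calls of 3 each in LLC against Control, also at an unadjusted p under 0.05, and 1 of 5 endothelial markers (Pecam1) was higher, against 4 of 5 among rFibcd1-injected mice and in the pooled comparison. None of the markers named here was at 0 throughout a group, and the part of any of these cell types in the levels of Ucp2, Cpt1a and Angptl4 was not tested.

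**Figure D5:**
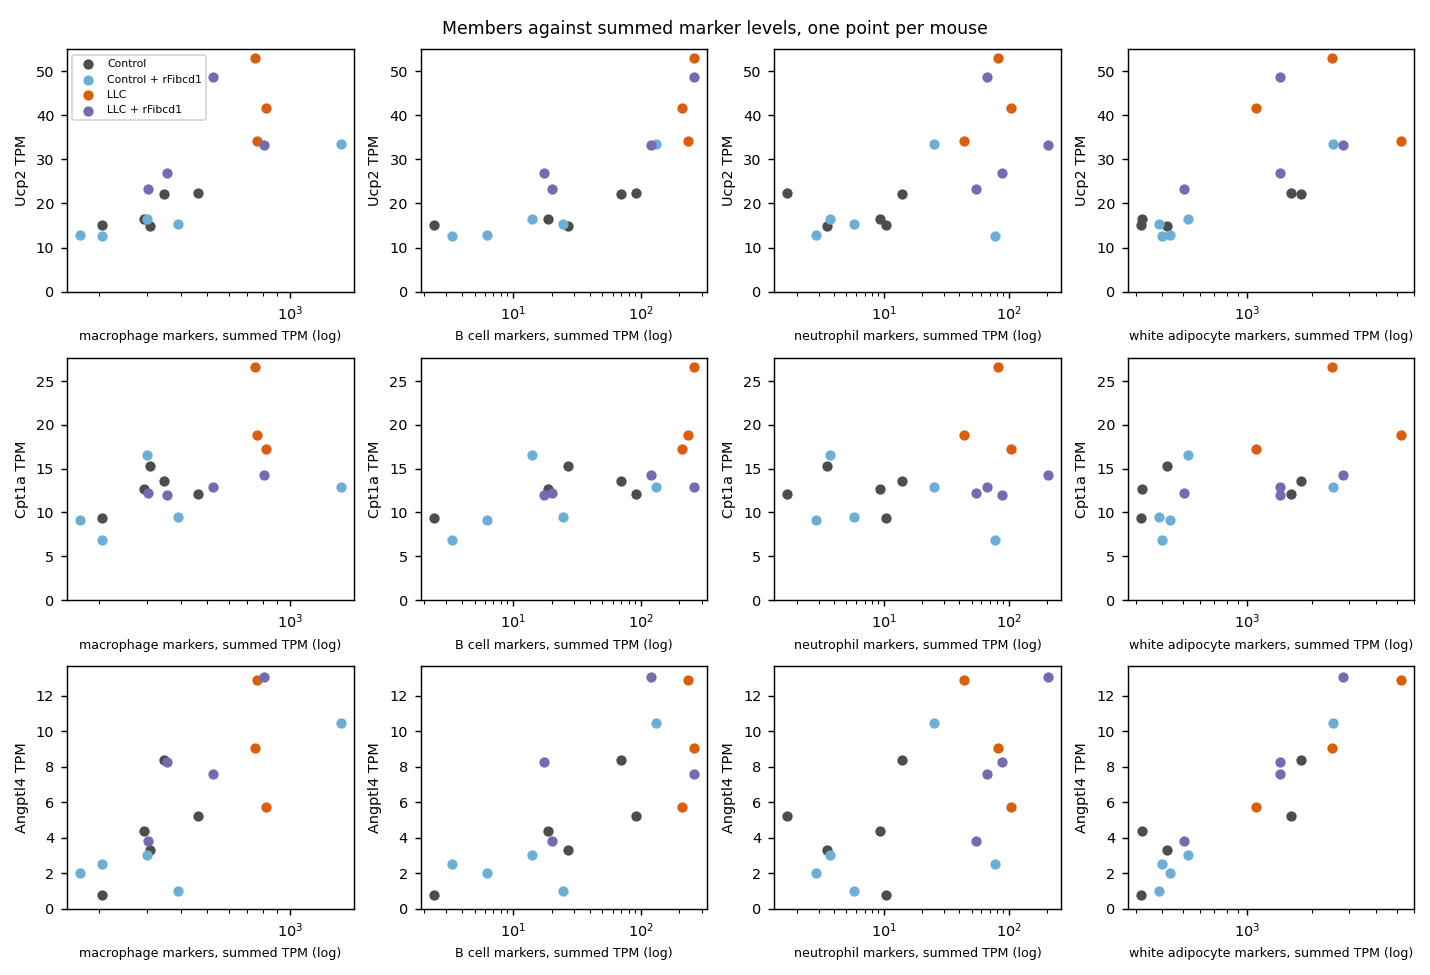
TPM of Ucp2, Cpt1a and Angptl4 (vertical axes, from 0) against the summed TPM of macrophage, B cell, neutrophil and white adipocyte markers (horizontal axes, logarithmic), with 1 point per mouse colored by group. Control + rFibcd1 replicate 1, at 1537 TPM of macrophage markers, has the highest Ucp2 and Angptl4 of the tumor-free mice.

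The genes whose levels varied most alike to a transcript over the 17 mice, after each gene was centered on its group means, were found for 4 transcripts as a description. For Ucp2 they were A430078G23Rik (Pearson r = 0.963), Cytip (0.952), Cdc25b (0.948), P2ry10 (0.945) and Rgs14 (0.945). Without the 2 mice farthest from the median in Ucp2, r was 0.868 to 0.920 for these 5. Pdk4 varied most alike to Aar2 (0.843), Ucp3 (0.819), Leo1 (0.814), Cacna2d3 (0.800) and Agpat3 (0.798), and without Control replicates 3 and 2, the farthest in Pdk4, r was 0.620 for Ucp3, 0.442 for Leo1 and 0.669 to 0.794 for the other 3. Angptl4 varied with Ifi27l2a (0.909), BC051226 (0.906), Acbd4 (0.896), Pon3 (0.894) and Pcbp2 (0.891), and Acot1 with Las1l (0.866), Tacc2 (0.862), Hist1h1c (0.852), Naca (0.845) and Atg13 (0.833). Without the 2 farthest mice, r was 0.837 to 0.892 for the Angptl4 genes and 0.556 (Naca) to 0.776 (Las1l) for the Acot1 genes, where LLC + rFibcd1 replicate 1 was one of the mice left out. The 5 genes were the highest of 13305 in each case, and all values share the libraries and their scaling.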

How the data were processed

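Per the labels and the study's methods, the authors sequenced paired reads of diaphragm RNA, trimmed and filtered them, aligned them to mouse build mm10 (GRCm38) and computed the deposited TPM with CLC Genomics Workbench. Strandedness of counting was not given in the sources used here. TPM sum to 1000000 per mouse, mitochondrially encoded genes included, so levels are relative. Groups and replicate numbers were taken from sample titles, and p-values measure the spread between mice. The 13305 genes that reached 1 TPM in 3 or more mice were tested on log2(TPM + 1) with limma 3.58.1 (R 4.3.3) in one fit of 4 groups (13 residual degrees of freedom, two-sided, Benjamini-Hochberg adjustment over all genes tested, threshold 0.05). The study's Kruskal-Wallis and Dunn tests were replaced, since groups hold 3 to 5 mice, by limma, with an exact rank-sum test as an alternative. The script was tested on simulated data. Fold changes on the log2(TPM + 1) scale understate those of low genes. Fragments were estimated with GENCODE vM21 exon lengths, matched for 94.6% of symbols. Between 80.8% and 83.7% of low values fell within 0.02 of whole fragments, against 4% of random values. Named genes were the 9 transcripts, up to 4 called genes of each pathway list with the largest differences in a comparison, Ppara, Ppard, Lpl, and the 5 genes most alike to each of 4 transcripts. The cell type markers named beside them were chosen after their values were seen. Members and lists were chosen with earlier results of these data known. Coding sequences were aligned with Biopython 1.88. One gene result is not reported here.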

Additional observations from a re-analysis of the deposited data

Results flagged for a closer look

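Of 27 sets formed by a transcript and a group of 4 or 5 mice, 4 had a mouse whose gap to its neighbor, relative to the range of the group, exceeded the 95% critical value of Dixon's test, where chance flags about 1 in 20. In LLC + rFibcd1, replicate 1 was highest for Acot1 (25.5 TPM, against 8.26 to 10.1 TPM in the other mice) and for Pdk2 (325 TPM, against 269.5 to 278 TPM). In Control + rFibcd1, replicate 1 was highest for Ucp2 (33.6 TPM, against 12.6 to 16.5 TPM) and for Angptl4 (10.5 TPM, against 0.996 to 3.00 TPM).

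For Pdk2, the mice lay on opposite sides of their reference means. All 3 LLC mice were below the Control mean (log2 difference -0.11), whereas all 4 LLC + rFibcd1 mice were above the Control + rFibcd1 mean (log2 difference 0.19). Likewise, all Control + rFibcd1 mice were below the Control mean (log2 difference -0.14) and all LLC + rFibcd1 mice were above the LLC mean (log2 difference 0.17). The test of the difference itself, the interaction in limma, gave an adjusted p of 0.182. Of these 4 differences only LLC + rFibcd1 against Control + rFibcd1 passed in limma (adjusted p = 0.0437), and under median-ratio scaling it was 0.051 and did not pass (adjusted p = 0.783).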

How the results depend on the processing

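In the exact rank-sum test, p cannot go below 0.0357 with 3 against 5 mice and no ties. The smallest p of this test over all genes in LLC against Control was 0.0179 (adjusted p 0.0887). Among rFibcd1-injected mice its smallest adjusted p was 0.178, so it could call no gene in either comparison. The number of the 9 transcripts called in LLC against Control (3) was 0 with this test and 0 with the replicate number as a block. Among rFibcd1-injected mice (1 called) it was 0 without the filter on low values, after rescaling without mitochondrially encoded genes, under median-ratio scaling, under quantile normalization, in a fit of only the groups compared, with the exact rank-sum test and with the replicate block. In tumor-bearing against tumor-free mice (4 called) it was 1 with the rank-sum test. Leaving out 1 mouse at a time gave 0 to 5, 0 to 3 and 1 to 5 calls in these comparisons, and 0 in the other 3. What the replicate numbers stand for was not given in the sources used here. Deviations of mice with the same number correlated between -0.44 and 0.48. Such mixed values cannot show whether these mice were handled together. Over all genes tested, leaving out 1 mouse gave 24 to 5254 calls in LLC against Control, the lowest without LLC replicate 3, and 477 to 2893 among rFibcd1-injected mice. The replicate block gave 5 called genes in LLC against Control, where the fit without it gave 4759, and 3782 in the pooled contrast, where it gave 5963. Of genes called in LLC against Control, 83.2% were higher, but 62.9% after rescaling without mitochondrially encoded genes, 48.5% under median-ratio scaling and 32.2% under quantile normalization. In the pooled contrast the share was 86.7%, but 68.9%, 49.4% and 35.4% under these 3 rescalings. Among rFibcd1-injected mice, 1072 genes were called, but 581, 490 and 467 under these 3 rescalings, 304 in a fit of only the groups compared and 492 with the replicate block. Of the pathway genes, 31 were called in LLC against Control and 22 in the pooled contrast, but 48 and 41 under median-ratio scaling, 47 and 39 under quantile normalization, and 0 and 12 with the replicate block.

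Directions of small differences turned. In LLC + rFibcd1 against Control + rFibcd1, Acot2 was -0.00084, -0.070 and -0.054 under these 3 rescalings and -0.083 to 0.17 when 1 mouse was left out, and Cpt1b ranged from -0.098 to 0.013. In tumor-bearing against tumor-free mice, Pdk2 was -0.032, -0.11 and -0.025 under the 3 rescalings, and Acot1 was -0.039 under median-ratio scaling, -0.089 under quantile normalization and -0.094 to 0.17 with 1 mouse left out. In LLC + rFibcd1 against LLC, Angptl4 was 0.0085 under quantile normalization, 0.026 with the replicate block and -0.46 to 0.084 with 1 mouse left out, and Acot2 was -0.022 to 0.23. In Control + rFibcd1 against Control, Cpt1b was 0.00027 under median-ratio scaling and Ucp2 ranged from -0.31 to 0.023 with 1 mouse left out. The interaction for Angptl4 ranged from -0.20 to 0.46. The cause of these turns was not tested.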
